A study of Homo sapiens with 6 samples.

Results

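The genes described here are those that make up and supply the lysosome, taken as the genes of the deposited expression table that carry the KEGG lysosome pathway. The table lists 20030 genes, of which 123 carry this pathway. Of these, 5 with symbols starting with ABC or SLC were left out, which leaves 118. They were sorted by hand into 52 hydrolases, 6 cofactors of hydrolases, 18 membrane proteins, 6 tagging enzymes and sorting receptors, 10 subunits of the proton pump (V-ATPase) and 26 clathrin chains and adaptor subunits. The 118 genes were chosen by their annotation and symbols alone, but the set was proposed with results of the knockdown comparison known, so the counts and medians below are descriptions and support nothing.

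Lysosomes are acidic, membrane-bound compartments in which proteins, glycans, lipids and nucleic acids are broken down by hydrolases. Most hydrolases are made in the endoplasmic reticulum, tagged with mannose 6-phosphate in the Golgi apparatus and carried on by receptors that clathrin and adaptor complexes pack into vesicles, while the V-ATPase pumps protons to keep the compartment acidic. Many of these genes are targets of the MiT/TFE transcription factors (TFEB, TFE3 and MITF), and a subset of renal carcinomas carries gene fusions of TFE3 or TFEB.

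786-O is an established human cell line from a clear cell renal cell carcinoma, obtained from ATCC. It was infected with lentivirus carrying either a small hairpin RNA against YB1 in the pGV248 backbone (shYB1) or a scrambled hairpin (vector), and total RNA was taken 7 days after puromycin selection, with passages 16 to 18 given for both groups. YB1 is a cold-shock domain protein that binds DNA and RNA, and its gene is YBX1. Each group had 3 RNA-seq libraries, and the labels give a single shYB1 group, whereas the design text of the series speaks of several independent hairpins. No source used here says whether the 3 libraries of a group came from separate cultures, so the p-values below measure only the spread between these libraries.

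Levels are given in FPKM, a fragment count corrected for transcript length and library size, so levels of different genes can be set side by side per length. The values carry no counts, and the depth behind them is unknown. YBX1, on chromosome 1 from 42682418 to 42703805 (GRCh38.p14, RefSeq, as for all positions below), had 366.5, 373 and 378 FPKM with vector and 167, 166 and 173 FPKM with shYB1. The shYB1 values are all well below the vector values, as the labels require. The mean was 372 ± 5.70 FPKM (SD, n = 3) with vector and 169 ± 4.04 FPKM with shYB1, a log2 fold change of −1.14 with a standard error of 0.031 and an adjusted p of 1.53e-08 by limma. A gene is called higher or lower below where this adjusted p, taken over all genes tested, is under 0.05. Of the 50-base words in the transcripts of YBX1, 30.7% also occur in other genes, most of them in the pseudogene YBX1P1, so its reads may in part be assigned elsewhere.

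Markers of the line were present in every library. The 7 genes taken as marks of renal carcinoma epithelium (PAX8, PAX2, KRT8, KRT18, VIM, CA9 and NNMT) summed to 1969, 1986 and 2074 FPKM with vector and 1989, 2009 and 2026 FPKM with shYB1, most of it VIM. All 7 were tested; PAX2 was called higher, a call that held in 6 of 15 alternative fits, and NNMT lower. The 6 leukocyte and macrophage genes summed to 2.35, 2.03 and 2.19 FPKM with vector and 3.09, 2.80 and 3.18 FPKM with shYB1. Most of this was CSF1R, while CD163 and TYROBP were listed at 0 in all 6 libraries and PTPRC stayed at or under 0.0164 FPKM. The endothelial genes PECAM1, CDH5 and VWF summed to 0.406, 0.380 and 0.365 FPKM with vector and 0.240, 0.288 and 0.326 FPKM with shYB1, with CDH5 at 0 in all 6. The fibroblast genes DCN, LUM and PDGFRB summed to 2.31, 2.31 and 2.11 FPKM with vector and 2.62, 2.53 and 2.46 FPKM with shYB1, most of it LUM. Among 6 genes of proliferating cells, CCNB1, AURKA and PLK1 were called higher by 0.21, 0.19 and 0.19 on the log2 scale, and MKI67, TOP2A and CDK1 were not called.

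Of the 118 lysosome genes, 102 reached the mean of 1 FPKM over the 6 libraries that was asked of a gene for testing. The 16 that did not are 11 hydrolases (the proteases CTSE, CTSF, CTSG, CTSS and NAPSA, the glycosidases GALC and HYAL1, the nuclease DNASE2B and the sulfatases ARSB, ARSG and SGSH), the cofactor PSAPL1, the membrane protein LAMP3, the V-ATPase subunit ATP6V0D2 and the adaptor subunits AP3B2 and AP4S1. CTSF, CTSG, DNASE2B and PSAPL1 were listed at 0 in all 6 libraries. At the other end, 8 genes averaged over 100 FPKM. The 118 genes together held 1.59% of the FPKM total of each vector library and 1.54 to 1.55% of that of each shYB1 library. Their sums were 4490, 4500 and 4709 FPKM with vector and 4410, 4430 and 4488 FPKM with shYB1. The highest shYB1 sum and the lowest vector sum nearly touch.

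Among the 102 lysosome genes tested, 13 were called higher and 16 lower in shYB1 cells, and 73 were not called. The 13 include CTSW, which passed the filter only through the shYB1 group, as described below. Of all 10439 genes tested, 18.7% were called higher and 6.93% lower, 25.7% in all, against 12.7% and 15.7% of the lysosome genes. Their median log2 fold change was −0.025, beside 0.055 for all genes tested, and the range ran from −0.28 to 0.94, the latter in CTSW. Most differences were small: the median absolute log2 fold change was 0.10, beside 0.11 for all genes tested. Fold changes are taken on log2(FPKM + 0.1), which makes those of low genes too small. In these bulk samples, less RNA per cell and fewer cells that express a gene cannot be told apart.

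The split between higher and lower calls depended on how the libraries were scaled. Median-of-ratios scaling, which places the typical gene at no change, moved the median over all genes tested by −0.054 on the log2 scale. With it, 4 lysosome genes were called higher and 31 lower, beside 11.4% and 12% of all genes tested. The 4 are among the 13 and include CTSW. The 31 hold all 16 called lower before and 15 that had not been called. Where a library is said below to have been left out, 1 was left out at a time. Without vector replicate 1, shYB1 replicate 1 or shYB1 replicate 2, the count of lysosome genes called higher was 4, 7 and 5, and without shYB1 replicate 1 or 2 the count called lower was 10 and 9. The count of all genes called higher was also smaller in these fits, at 1324, 1485 and 1344, against 1956. All genes called lower also fell without shYB1 replicate 1 or 2, to 526 and 517, against 723. Of the 28 calls other than that of CTSW, which is described below, 11 held in each of the 15 alternative fits that tested the gene: LAPTM5, ACP5 and ATP6V0A2 among the higher, and AGA, LIPA, CTSA, LGMN, CD164, CD68, LAPTM4B and NPC1 among the lower.

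**Figure D1:**
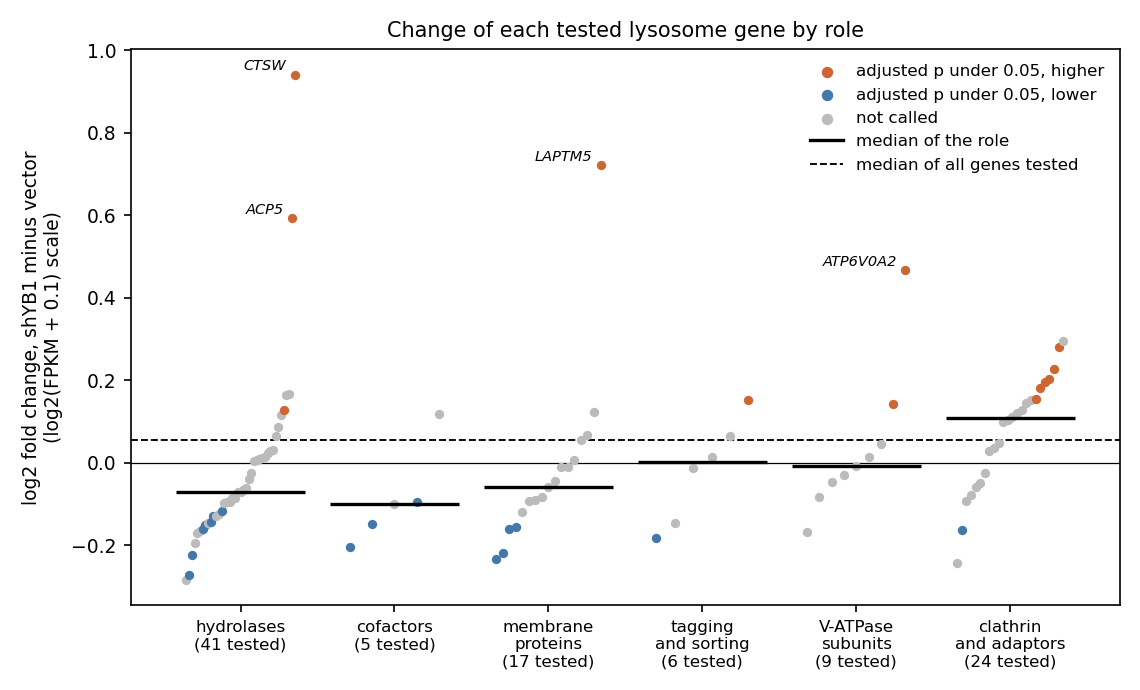
Log2 fold change (shYB1 minus vector, on the log2(FPKM + 0.1) scale) of each of the 102 tested lysosome genes, 1 point per gene, sorted within its role; colours mark genes with an adjusted p under 0.05, thick bars the median of the role and the dashed line the median of all genes tested. With FPKM as deposited, the medians of hydrolases (−0.070), cofactors (−0.100) and membrane proteins (−0.058) lie below zero and that of clathrin and adaptors (0.11) above it, and CTSW, LAPTM5, ACP5 and ATP6V0A2 stand above the rest.

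By role, 14 of the 16 lower genes were hydrolases, cofactors or membrane proteins. These roles hold 41, 5 and 17 of the 102 lysosome genes tested. Of all genes tested, 6.93% were called lower and 18.7% higher, or 12% and 11.4% with median-of-ratios scaling. Of the 41 hydrolases tested, 7 were called lower (17.1%) and 3 higher (7.32%), with a median log2 fold change of −0.070. With median-of-ratios scaling 16 were lower (39%) and 2 higher (4.88%). Both counts of higher hydrolases include CTSW, which had to differ to be tested. Without shYB1 replicate 2, the count of lower hydrolases was 4. Of the 5 cofactors tested, 3 were lower and 0 higher by limma, also 0 higher at an unadjusted p under 0.05. Of the 17 membrane proteins 4 were lower (23.5%) and 1 higher (5.88%). With median-of-ratios scaling 4 cofactors and 8 membrane proteins (47.1%) were lower, and 0 and 1 higher. Of the 24 clathrin and adaptor genes tested, 6 were higher (25%) and 1 lower (4.17%), with a median of 0.11 (0.053 with median-of-ratios scaling). With that scaling 0 were higher and 1 lower.

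The medians can be read library by library, as deviations from the vector mean on the log2 scale. The median hydrolase deviated by −0.012, −0.029 and 0.042 in the vector libraries and by −0.088, −0.054 and −0.029 in the shYB1 libraries. The highest shYB1 value here meets the lowest vector value. The median membrane protein deviated by −0.023, −0.0048 and 0.031 with vector and by −0.050, −0.040 and −0.060 with shYB1, and the median clathrin or adaptor gene by −0.027, 0.0055 and 0.030 with vector and by 0.077, 0.13 and 0.065 with shYB1. For both roles the groups are apart, in opposite directions. The median of all genes tested deviated by 0.053, 0.058 and 0.056 with shYB1, so clathrin and adaptors lie near the rest of the genes and hydrolases and membrane proteins below them. The median of clathrin and adaptors minus that of hydrolases was 0.18 with FPKM as deposited and 0.18 with median-of-ratios scaling, and 0.091 without shYB1 replicate 2. This difference was picked after the medians were seen.

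**Figure D2:**
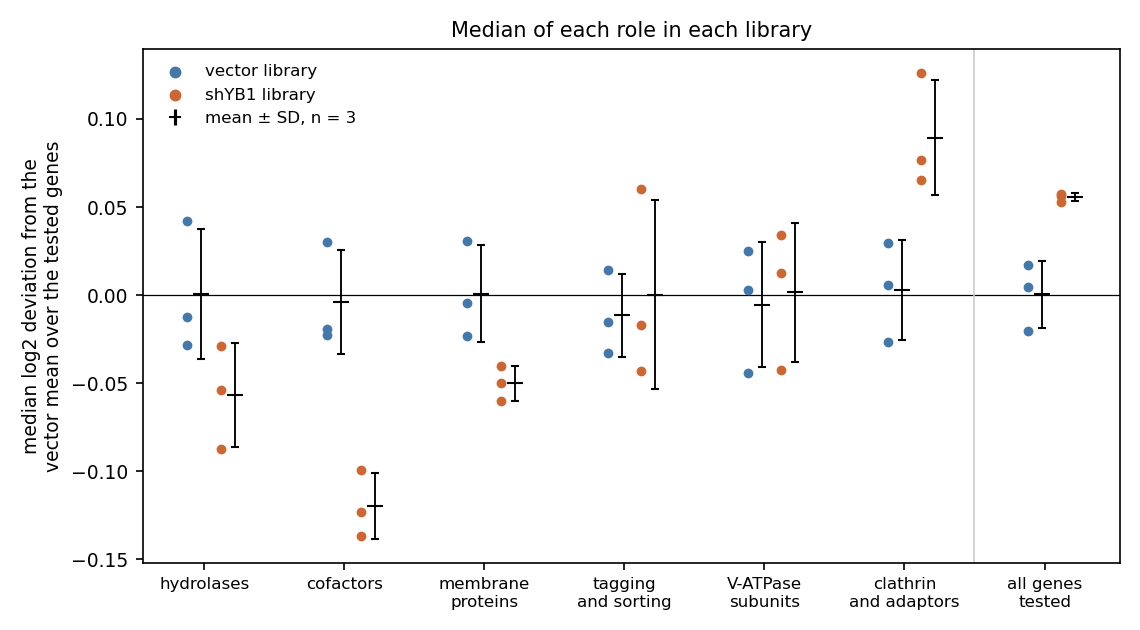
Median log2 deviation of the tested genes of each role from their vector means (vertical axis) in each vector and shYB1 library, 1 point per library, with the mean ± SD (n = 3). With FPKM as deposited, the shYB1 libraries lie below the vector libraries for cofactors and membrane proteins and above them for clathrin and adaptors and for all genes tested, and the groups overlap for tagging and sorting genes and V-ATPase subunits.

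The most abundant lysosome gene was CTSD, the aspartic protease cathepsin D, on chromosome 11 from 1752755 to 1763927. It had 992, 978 and 1062 FPKM with vector and 1015, 1008 and 1058 FPKM with shYB1, between 21.7 and 23.6% of the sum over the 118 genes. The groups overlapped, and the log2 fold change was 0.024 (95% interval −0.061 to 0.11), below zero at −0.032 with median-of-ratios scaling. With quantile normalization CTSD was called higher, at 0.11 (adjusted p = 0.00357 by limma). Of its 50-base words, 36.5% also occur in another transcript annotated on the same strand. CTSZ, a carboxypeptidase, came next among the hydrolases, at 178, 179 and 194 FPKM with vector and 179.7, 186 and 187 FPKM with shYB1, and its groups overlapped too. CTSL, a cysteine endopeptidase, lay at 63.9 to 70.0 FPKM with vector and 63.7 to 66.9 FPKM with shYB1 and was not called.

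Of the 13 proteases tested, 4 were called lower (30.8%, beside 6.93% of all genes tested), each by a small amount. Higher was 1 (7.69%, beside 18.7%), CTSW, which is described below. CTSA, a serine carboxypeptidase that also protects the galactosidase GLB1 and the sialidase NEU1, had 97.8, 96.8 and 99.4 FPKM with vector and 85.7, 87.6 and 91.3 FPKM with shYB1. Each shYB1 value lay below each vector value (log2 fold change −0.15, standard error 0.034, adjusted p = 0.00897 by limma). CTSB, a cysteine protease, had 85.8, 86.9 and 86.6 FPKM with vector and 77.5, 78.3 and 81.4 FPKM with shYB1. Its groups were apart as well (log2 fold change −0.13, standard error 0.032, adjusted p = 0.0150 by limma), but the call was lost without shYB1 replicate 1 or 2 (adjusted p 0.0624 and 0.0598), or with a prior without trend (adjusted p 0.0644).

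LGMN and TPP1, like the other called genes that were neither among the most abundant of their role nor among the largest changes, were picked after their values were seen, as were SGSH, CTSS, GNPTAB and the transporters below. LGMN, the asparagine-specific protease legumain, on chromosome 14 from 92703809 to 92748627, had 44.6, 42.1 and 44.8 FPKM with vector and 37.1, 36.9 and 38.6 FPKM with shYB1. The gap between the groups was wider than the spread within either (log2 fold change −0.22, standard error 0.038, adjusted p = 0.00247 by limma). TPP1, a tripeptidyl peptidase, had 27.6, 25.2 and 26.1 FPKM with vector and 24.3, 23.9 and 23.1 FPKM with shYB1. It was lower by a narrow margin (log2 fold change −0.14), a call lost without vector replicate 1 or 3, or shYB1 replicate 1, 2 or 3 (adjusted p 0.131, 0.0594, 0.0586, 0.0801 and 0.108), or with no filter or a prior without trend (adjusted p 0.0695 and 0.0810).

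The glycosidases trim sugar chains from glycoproteins, glycolipids and glycosaminoglycans. Of 15 tested, 13 had a log2 fold change below zero and 6 had all shYB1 values below all vector values, but AGA alone was called. Over all 10439 genes tested, 3745 were below zero and 1305 had all shYB1 values below all vector values. AGA cuts the link between asparagine and the sugar chain, so it is an amidase rather than a glycosidase in the strict sense. It was sorted by hand with the glycosidases and is counted with them throughout. AGA lies on chromosome 4 from 177430774 to 177442437. It had 8.50, 8.50 and 8.74 FPKM with vector and 7.0005, 7.03 and 7.25 FPKM with shYB1. The groups were clearly apart (log2 fold change −0.27, standard error 0.048, adjusted p = 0.00291 by limma). With median-of-ratios scaling all 15 were below zero and 8 were called lower, beside 5197 and 1253 of the 10439 genes tested. The glycosidases together summed to 331, 339 and 351 FPKM with vector and 317, 322 and 323 FPKM with shYB1, with no overlap between the groups.

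Among the sulfatases, SGSH, which acts on heparan sulfate, was under the filter, at 0.551, 0.592 and 0.622 FPKM with vector and 0.744, 0.956 and 0.942 FPKM with shYB1. Among the lipid hydrolases, LIPA, the acid lipase that frees cholesterol from its esters, had 59.99, 59.0 and 57.6 FPKM with vector and 50.9, 54.3 and 52.8 FPKM with shYB1. Its shYB1 values were all lower (log2 fold change −0.16, standard error 0.036, adjusted p = 0.00944 by limma).

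PPT1, a thioesterase that removes palmitate from proteins, was called higher, at 45.2, 47.1 and 46.9 FPKM with vector and 50.2, 51.9 and 50.1 FPKM with shYB1. The rise of 0.13 on the log2 scale was not called without vector replicate 1, or shYB1 replicate 2 (adjusted p 0.0788 and 0.0877), or with median-of-ratios scaling or a prior without trend (adjusted p 0.113 and 0.0697). Of its exon bases, 27.3% overlap CAP1 on the opposite strand. ACP5, tartrate-resistant acid phosphatase, known from osteoclasts and macrophages, on chromosome 19 from 11574660 to 11578975, had 3.27, 3.11 and 3.66 FPKM with vector and 5.28, 5.41 and 4.596 FPKM with shYB1. Its lowest shYB1 value was above its highest vector value (log2 fold change 0.59, standard error 0.084, adjusted p = 8.69e-04 by limma).

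The largest log2 fold change of any lysosome gene tested was that of CTSW, a cysteine protease known from cytotoxic lymphocytes, on chromosome 11 from 65879837 to 65883741. It had 0.645, 0.615 and 0.882 FPKM with vector and 1.61, 1.30 and 1.44 FPKM with shYB1, so the groups were apart at a low level. The log2 fold change was 0.94, with a standard error of 0.14. CTSW averaged 0.714 FPKM with vector and 1.45 FPKM with shYB1. It passed the filter only through the shYB1 group, so it had to differ to be tested, and its change is a description.

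**Figure D3:**
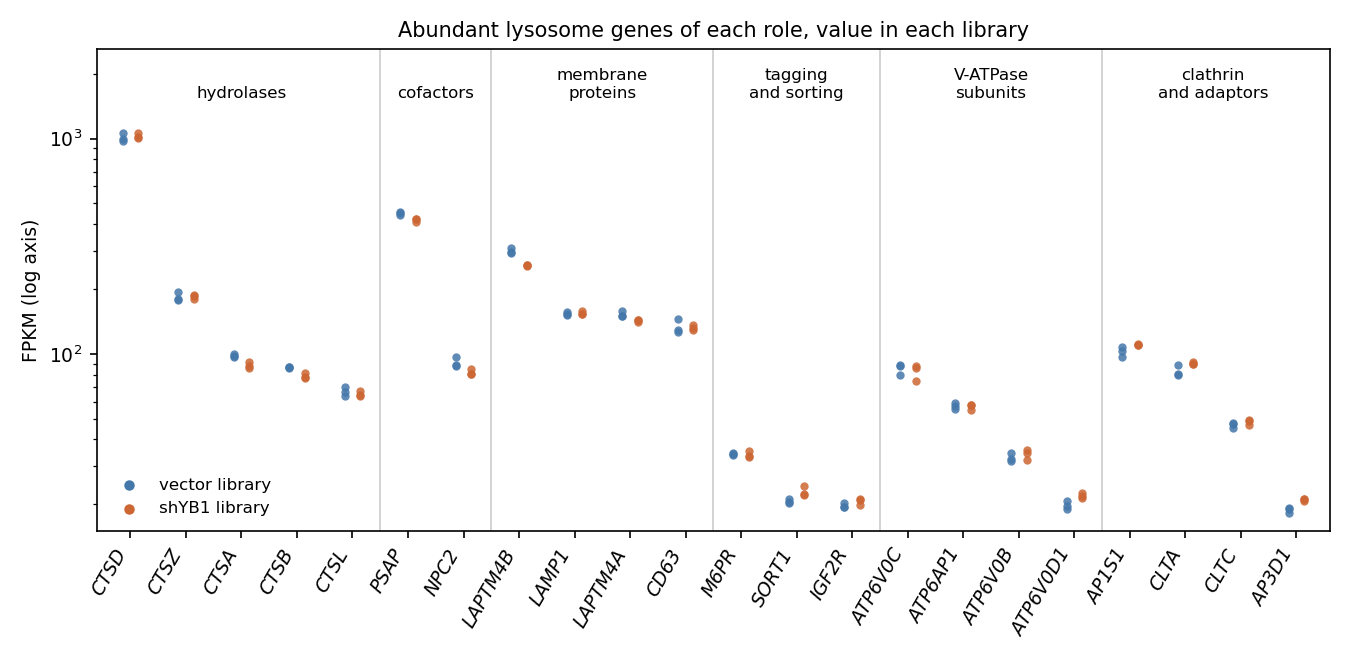
FPKM (log axis) of abundant lysosome genes of each role in each vector and shYB1 library, 1 point per library, in order of their mean within the role. CTSD stands at 978 to 1062 FPKM over the 6 libraries, PSAP at 412 to 455 FPKM and LAPTM4B at 257 to 309 FPKM, and the distance between the groups is small beside the distance between genes.

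Cofactors help hydrolases to reach or bind their substrates. PSAP, the precursor of the saposins that present sphingolipids, on chromosome 10 from 71816298 to 71851251, had 449, 441 and 455 FPKM with vector and 412, 423 and 424 FPKM with shYB1. The groups did not overlap (log2 fold change −0.096, standard error 0.030, adjusted p = 0.0385 by limma), but the call was lost without vector replicate 1 or 2, or shYB1 replicate 1, 2 or 3 (adjusted p 0.104, 0.0523, 0.143, 0.0957 and 0.0747), or with quantile normalization or a prior without trend (adjusted p 0.214 and 0.130). With quantile normalization its log2 fold change was −0.040. NPC2, which carries cholesterol inside the lysosome, had 88.4, 88.2 and 96.6 FPKM with vector and 80.5, 84.9 and 81.0 FPKM with shYB1. Here too the groups were apart (log2 fold change −0.15, standard error 0.042, adjusted p = 0.0272 by limma), and the call was lost without vector replicate 3, or shYB1 replicate 1 or 3 (adjusted p 0.0503, 0.0910 and 0.0760), or with no filter or a prior without trend (adjusted p 0.0654 and 0.0870). SUMF1, the enzyme that activates sulfatases, had 5.81, 5.84 and 6.02 FPKM with vector and 4.90, 5.16 and 5.25 FPKM with shYB1. It was called lower (−0.20 on the log2 scale), but not without vector replicate 1, 2 or 3, or shYB1 replicate 1 or 2 (adjusted p 0.0520, 0.0502, 0.0615, 0.0819 and 0.0578). GM2A, the activator of ganglioside breakdown, was not called.

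NPC1, the membrane protein that takes cholesterol over from NPC2 and exports it, on chromosome 18 from 23506184 to 23586506, had 49.6, 50.3 and 51.4 FPKM with vector and 43.2, 42.5 and 42.9 FPKM with shYB1. Values within each group lay close together, with a clear gap between the groups (log2 fold change −0.23, standard error 0.032, adjusted p = 7.86e-04 by limma).

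The most abundant membrane protein gene was LAPTM4B, which codes for a small transmembrane protein of late endosomes and lysosomes. It had 294, 298 and 309 FPKM with vector and 257, 259 and 258 FPKM with shYB1. All 3 shYB1 values were lower (log2 fold change −0.22, standard error 0.031, adjusted p = 8.27e-04 by limma). Its relative LAPTM4A had 150.2, 149.6 and 157 FPKM with vector and 141, 143 and 144 FPKM with shYB1. These did not overlap either, but the adjusted p of 0.0560 by limma missed the threshold. LAPTM4A was called lower with median-of-ratios scaling, a common total, quantile normalization, the filter at 5 FPKM or a replicate block (adjusted p 0.00448, 0.0116, 0.00632, 0.0445 and 0.0332). The family member LAPTM5, known from blood cells, on chromosome 1 from 30732469 to 30757774, went the other way, at 3.09, 3.59 and 4.53 FPKM with vector and 6.24, 6.03 and 6.18 FPKM with shYB1. Its vector libraries spread widely, yet all lay below the shYB1 libraries (log2 fold change 0.72, standard error 0.12, adjusted p = 0.00240 by limma).

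LAMP1 and CD63 are widely used marks of the lysosomal membrane. LAMP1 had 153, 151 and 157 FPKM with vector and 154, 152 and 158 FPKM with shYB1. These overlap almost fully, with a log2 fold change of 0.0077 (95% interval −0.061 to 0.077), or −0.048 with median-of-ratios scaling. CD63 had 127, 129 and 145 FPKM with vector and 129.5, 132 and 136 FPKM with shYB1, also overlapping. The sialomucin CD164 had 75.1 to 78.4 FPKM with vector and 67.2 to 71.4 FPKM with shYB1, and CD68, a sialomucin used as a macrophage mark, had 24.7, 25.0 and 25.4 FPKM with vector and 22.1, 22.5 and 22.6 FPKM with shYB1. Both were called lower, at log2 fold changes of −0.16 and −0.16. Of the 50-base words of CD68, 74.3% also occur in a transcript annotated over it on the same strand.

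CTSW, LAPTM5 and ACP5 are best known from blood cells or macrophages, and were set together after their values were seen. In the leukocyte and macrophage list, CSF1R, a growth factor receptor of macrophages, was also called higher, at 2.02, 1.66 and 1.58 FPKM with vector and 2.65, 2.54 and 2.74 FPKM with shYB1. Its groups were apart (log2 fold change 0.58, standard error 0.099, adjusted p = 0.00251 by limma). It was the 1 gene of the 6 that could be tested, and the defining markers PTPRC, CD163 and TYROBP were at or near 0 in both groups, as given above. CD14 averaged 0.419 FPKM with vector and 0.364 FPKM with shYB1, and ITGAM 0.0199 and 0.00889 FPKM, both lower with shYB1 and below the filter. The part of such cells in the rise of CTSW, LAPTM5 and ACP5 was not tested further. CTSS, a protease of antigen-presenting cells, lay at 0.523 to 0.714 FPKM with vector and 0.446 to 0.594 FPKM with shYB1. It was lower on average with shYB1, with overlap between the groups, and below the filter. CD68, the macrophage mark within the set, was called lower, as given above. CTSW passed the filter only through the shYB1 group, so its rise adds nothing to this reading.

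**Figure D4:**
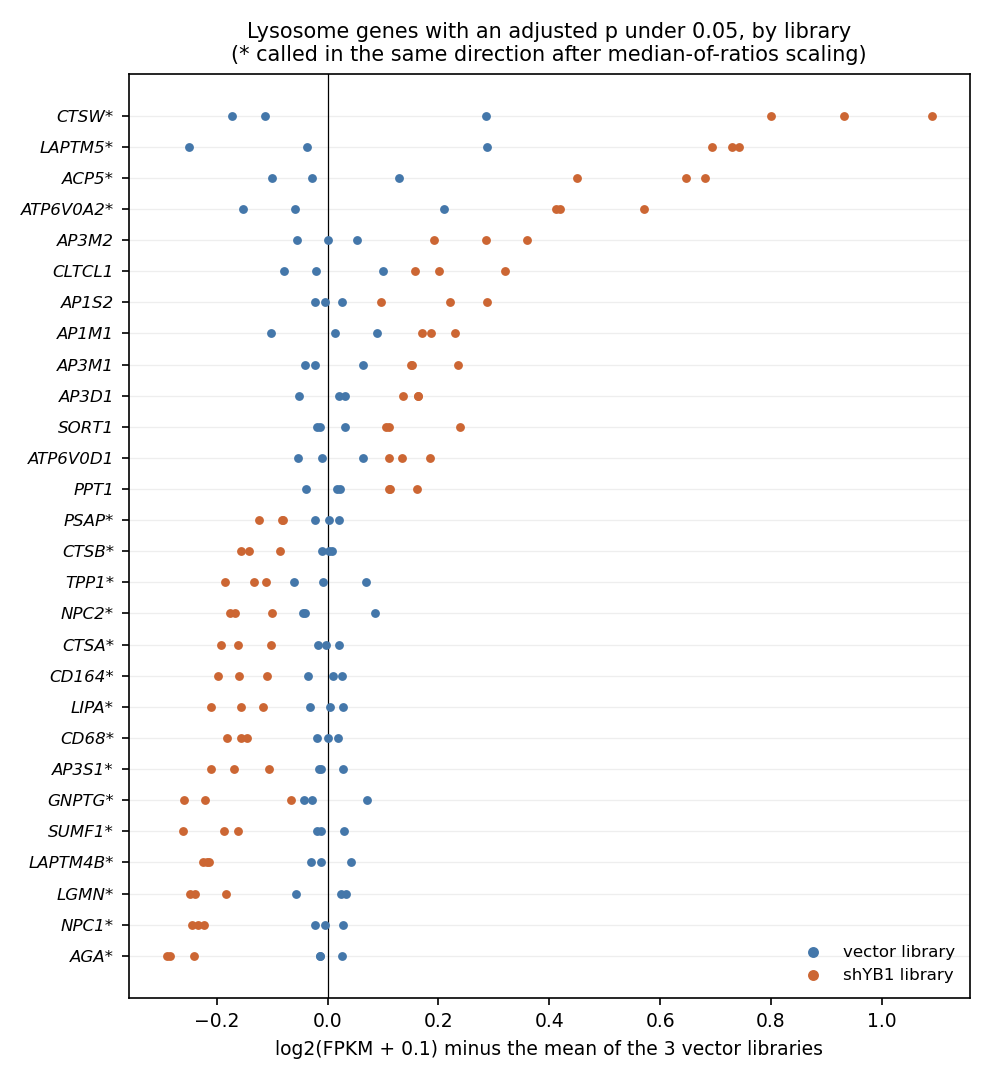
Log2(FPKM + 0.1) in each library minus the mean of the 3 vector libraries (horizontal axis) for lysosome genes with an adjusted p under 0.05, 1 point per library, ordered by log2 fold change; an asterisk marks genes called in the same direction with median-of-ratios scaling. The lower genes shown and 4 of the 13 higher genes carry an asterisk.

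Tagging and sorting bring hydrolases to the lysosome. M6PR, the small mannose 6-phosphate receptor, had 33.9, 34.2 and 34.8 FPKM with vector and 33.7, 35.2 and 33.2 FPKM with shYB1, and 40% of its exon bases overlap PHC1 on the opposite strand. IGF2R, the large receptor, had 19.5, 20.4 and 19.4 FPKM with vector and 21.2, 20.9 and 19.9 FPKM with shYB1. Neither was apart between the groups. SORT1, sortilin, which sorts some hydrolases without that tag, had 20.4, 21.1 and 20.4 FPKM with vector and 22.3, 24.3 and 22.2 FPKM with shYB1. All 3 shYB1 values were higher (log2 fold change 0.15, standard error 0.046, adjusted p = 0.0351 by limma), but the call was lost without vector replicate 1, 2 or 3, or shYB1 replicate 2 (adjusted p 0.0937, 0.0528, 0.0757 and 0.129), or with median-of-ratios scaling, quantile normalization, no filter or a prior without trend (adjusted p 0.150, 0.213, 0.0681 and 0.0751).

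GNPTG, a subunit of the enzyme that starts the tag, had 21.0, 19.6 and 19.4 FPKM with vector and 19.0, 16.7 and 17.1 FPKM with shYB1. It was called lower (−0.18 on the log2 scale), but not without vector replicate 1 or 2, or shYB1 replicate 2 or 3 (adjusted p 0.131, 0.0654, 0.132 and 0.105), or with no filter or a prior without trend (adjusted p 0.0880 and 0.0824). Of its exon bases, 41.8% overlap UNKL on the opposite strand. GNPTAB, which codes for the other subunits of that enzyme, lay at 5.01 to 5.60 FPKM with vector and 5.09 to 5.56 FPKM with shYB1 and was not called.

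The V-ATPase subunits in the set belong mostly to the membrane sector, through which protons pass. ATP6V0C, which forms most of its ring, had 79.4, 88.2 and 88.6 FPKM with vector and 87.3, 74.9 and 86.0 FPKM with shYB1. Of its 50-base words, 65.7% also occur in other genes. ATP6AP1, an accessory subunit, had 55.5, 57.3 and 58.9 FPKM with vector and 55.1, 57.6 and 58.0 FPKM with shYB1, and ATP6V0B, another ring subunit, had 31.9, 34.8 and 32.3 FPKM with vector and 34.5, 32.0 and 35.6 FPKM with shYB1. In all 3 genes the groups overlapped. ATP6V0D1, which joins the sectors, had 19.7, 19.1 and 20.7 FPKM with vector and 21.7, 21.4 and 22.5 FPKM with shYB1. It was called higher (log2 fold change 0.14, standard error 0.044, adjusted p = 0.0365 by limma), but not without vector replicate 1 or 2, or shYB1 replicate 1, 2 or 3 (adjusted p 0.0946, 0.113, 0.0795, 0.0591 and 0.108), or with median-of-ratios scaling, quantile normalization, no filter or a prior without trend (adjusted p 0.159, 0.174, 0.0641 and 0.0739).

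The large membrane subunit has 4 isoforms, of which ATP6V0A2 is found on the Golgi and endosomes. ATP6V0A2, on chromosome 12 from 123712353 to 123761755, had 1.21, 1.58 and 1.30 FPKM with vector and 1.85, 1.84 and 2.06 FPKM with shYB1. Its groups were apart at a low level (log2 fold change 0.47, standard error 0.11, adjusted p = 0.0122 by limma). The other isoforms ATP6V0A1, ATP6V0A4 and TCIRG1 had means of 6.46, 5.77 and 6.47 FPKM and were not called, while ATP6V0A1 was called lower with median-of-ratios scaling.

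Clathrin coats bud vesicles from the Golgi and endosomes, and adaptor complexes pick their cargo. AP1S1, a small subunit of the AP-1 complex, was the most abundant, at 103, 96.9 and 108 FPKM with vector and 109, 110.1 and 111 FPKM with shYB1. CLTA, a clathrin light chain, had 79.3, 80.7 and 89.0 FPKM with vector and 90.1, 92.1 and 89.8 FPKM with shYB1. In both genes the shYB1 values lay above the vector values. The adjusted p of 0.0808 and 0.0527 by limma missed the threshold, and both were called higher without vector replicate 3 (adjusted p 0.0140 for AP1S1 and 0.00298 for CLTA). AP1S1 was also called with a common total, quantile normalization or a replicate block (adjusted p 0.0323, 0.0101 and 0.0453), and CLTA with a common total, the filter at 5 FPKM or a replicate block (adjusted p 0.0150, 0.0374 and 0.0381). CLTC, the main clathrin heavy chain, had 45.0, 47.4 and 47.4 FPKM with vector and 48.6, 49.1 and 46.8 FPKM with shYB1, with overlap between the groups.

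Of the 24 clathrin and adaptor genes tested, 6 were called higher (25%, beside 18.7% of all genes tested). Of these 6, 3 are subunits of AP-3, a complex that serves lysosomes and related organelles. AP3D1, its delta subunit, had 18.1, 19.1 and 19.2 FPKM with vector and 20.7, 21.1 and 21.1 FPKM with shYB1. There was no overlap (log2 fold change 0.15, standard error 0.040, adjusted p = 0.0187 by limma). The medium subunits AP3M1 and AP3M2 were higher by 0.18 and 0.28, whereas the small subunit AP3S1 was lower (log2 fold change −0.16), a call lost without vector replicate 1, 2 or 3, or shYB1 replicate 1, 2 or 3 (adjusted p 0.0908, 0.0828, 0.112, 0.0539, 0.118 and 0.130), or with a common total, no filter or a replicate block (adjusted p 0.0554, 0.0625 and 0.0652). The other higher genes were AP1M1 (0.20) and AP1S2 (0.20) of AP-1 and CLTCL1 (0.23), a second clathrin heavy chain.

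None of these 6 was called higher with median-of-ratios scaling. Leaving out vector replicate 1 ended all 6 calls, with adjusted p from 0.0507 to 0.0954 by limma, and the count of clathrin and adaptor genes called higher was 2 and 1 without shYB1 replicate 1 and 2. AP3D1 itself was not called without vector replicate 1, or shYB1 replicate 2 or 3 (adjusted p 0.0699, 0.0593 and 0.0509), or with quantile normalization (adjusted p 0.0961). AP1M1 was not called without vector replicate 1, or shYB1 replicate 3 (adjusted p 0.0662 and 0.0605), or with quantile normalization or a prior without trend (adjusted p 0.0708 and 0.0509). AP1S2 lost its call without vector replicate 1 or 3, or shYB1 replicate 1 or 2 (adjusted p 0.0711, 0.0642, 0.101 and 0.0838), or with quantile normalization or no filter (adjusted p 0.103 and 0.0567). AP3M1 was not called without vector replicate 1 or 2, or shYB1 replicate 1 or 2 (adjusted p 0.0948, 0.0774, 0.104 and 0.0584), or with quantile normalization (adjusted p 0.107). AP3M2 lost its call without vector replicate 1 or 3, or shYB1 replicate 1 or 2 (adjusted p 0.0507, 0.0536, 0.0534 and 0.0799). CLTCL1 lost its call without vector replicate 1 or 3, or shYB1 replicate 1 or 2 (adjusted p 0.0954, 0.0997, 0.0695 and 0.134), or with quantile normalization or no filter (adjusted p 0.0952 and 0.0711). The GGA adaptors, which carry the mannose 6-phosphate receptors, gave 0 calls among 3 tested by limma, and 0 at an unadjusted p under 0.05. The AP-4 subunits also gave 0 calls among 3, with AP4E1 alone at an unadjusted p under 0.05.

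The calls also differed with the level of the gene. Of the 21 lysosome genes that averaged 50 FPKM or more, 8 were called lower and 0 higher by limma (2 higher at an unadjusted p under 0.05), beside 18.9% and 26.9% of the 891 genes tested at that level. Of the 58 between 5 and 50 FPKM, 8 were lower and 8 higher, beside 7.16% and 22.6% of 5656 genes. Of the 23 between 1 and 5 FPKM, 0 were lower by limma (1 at an unadjusted p under 0.05) and 5 higher, beside 3.85% and 11.2% of 3892 genes. The 5 higher include CTSW. The levels were divided in this way after the calls were seen.

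The annotation ties many of the genes to other pathways as well: 40 carry the lysosome pathway alone and 78 carry others too. In each of 16 other pathways that were counted, 0 to 3 of the tested lysosome genes were called higher and 0 or 1 lower by limma. The most called higher were 3 of 12 (25%), in the synaptic vesicle cycle and in rheumatoid arthritis. By share the most were 2 of 6 (33.3%), in collecting duct acid secretion. Of all genes tested, 18.7% were called higher and 6.93% lower. Among the transporters that were left out of the set, ABCA2, an ABC transporter of lysosomes, had 68.9, 69.2 and 71.0 FPKM with vector and 55.1, 56.0 and 56.2 FPKM with shYB1. Its shYB1 values were all lower (log2 fold change −0.32, standard error 0.031, adjusted p = 9.19e-05 by limma). The metal transporter SLC11A2 was called lower (−0.20 on the log2 scale), a call that held in 9 of 15 alternative fits. SLC17A5, a sialic acid exporter, was not called, and ABCB9 and SLC11A1 were below the filter.

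Genes that act on or with the lysosome without carrying the pathway were read from lists made by hand. Their counts of calls stand beside 18.7% called higher and 6.93% lower among all genes tested. The MiT/TFE factors gave 0 calls by limma among 3 tested, and 0 at an unadjusted p under 0.05. TFE3, the most abundant, had 19.9, 20.2 and 19.1 FPKM with vector and 19.9, 20.2 and 22.2 FPKM with shYB1, and TFEB had 2.21, 2.21 and 2.35 FPKM with vector and 2.35, 2.28 and 1.94 FPKM with shYB1. MITF lay at 7.84 to 8.02 FPKM with vector and 7.85 to 8.89 FPKM with shYB1. In all 3 the groups overlapped, and TFEC stayed at or under 0.0614 FPKM.

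Of 7 tested targets of these factors outside the set, 1 was called higher and 1 lower. SQSTM1, an autophagy receptor, had 94.0, 93.0 and 98.4 FPKM with vector and 109, 110.1 and 109 FPKM with shYB1. The groups were apart (log2 fold change 0.20, standard error 0.032, adjusted p = 0.00177 by limma), and 39.8% of its exon bases overlap MRNIP on the opposite strand. HIF1A, the oxygen-regulated transcription factor, had 65.0, 67.9 and 63.2 FPKM with vector and 46.3, 47.8 and 47.7 FPKM with shYB1. All 3 shYB1 values lay far below the vector values (log2 fold change −0.47, standard error 0.036, adjusted p = 2.20e-05 by limma).

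The Ragulator complex and the Rag GTPases bring the growth kinase mTORC1 to the lysosome. RRAGA, a Rag GTPase, on chromosome 9 from 19049427 to 19051025, had 137, 139 and 138 FPKM with vector and 110.5, 111 and 109.9 FPKM with shYB1. The libraries of a group lay very close together and the groups far apart (log2 fold change −0.32, standard error 0.028, adjusted p = 5.50e-05 by limma). RRAGB, its close relative, had 3.20, 2.82 and 2.71 FPKM with vector and 2.02, 2.49 and 2.16 FPKM with shYB1. It was called lower (−0.37 on the log2 scale), but not without vector replicate 1, or shYB1 replicate 1 or 3 (adjusted p 0.0726, 0.0656 and 0.0520). The partners RRAGC and RRAGD and the 5 LAMTOR subunits were not called. Of 12 tested, 2 were lower and 0 higher by limma, with FNIP1 higher at an unadjusted p under 0.05.

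Of 10 tested V-ATPase subunits outside the set, mostly of the V1 sector that splits ATP, 1 was called lower and 1 higher. ATP6V1D, of the central stalk, had 20.1, 19.4 and 21.5 FPKM with vector and 17.3, 17.8 and 17.3 FPKM with shYB1. Its groups were apart (log2 fold change −0.22, standard error 0.047, adjusted p = 0.00729 by limma). ATP6V0E2 had 4.76, 4.96 and 5.96 FPKM with vector and 6.92, 7.17 and 5.91 FPKM with shYB1, with overlap between the groups. It was higher by 0.35, but not without vector replicate 1 or 2, or shYB1 replicate 1 or 2 (adjusted p 0.0898, 0.0780, 0.0816 and 0.0910), or with no filter, a prior without trend or a replicate block (adjusted p 0.0694, 0.0526 and 0.0550). Of 2 tested cystatins, inhibitors of cysteine cathepsins, CSTB was called higher and CST3 not. CSTB, which acts in the cytosol, had 167, 164 and 176 FPKM with vector and 199.97, 199.9 and 202 FPKM with shYB1. No library of 1 group reached the other (log2 fold change 0.25, standard error 0.034, adjusted p = 6.22e-04 by limma).

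Promoters were read because many lysosome genes share an E-box motif bound by the MiT/TFE factors, and because YB1 was named for the Y-box, an inverted CCAAT. RefSeq windows (GRCh38.p14) from 250 bases before to 50 after the start were matched for 88 of the 118 genes. GTCACGTG or TCACGTGA, on either strand, was in 15 of the 88 windows (17%), beside 2.55% of all 27305 promoters and 4.67% of the 8665 windows of genes tested. The E-box CACGTG, which every such match contains, was in 21.6% of the lysosome windows, 10.1% of those of genes tested and 7.19% of all promoters. CCAAT, on either strand, was in 28.4% of the lysosome windows, 36.6% of those of genes tested and 35.4% of all promoters. The 8-letter motif was in 5 of 36 hydrolase windows and 1 of 21 clathrin and adaptor windows. It was in 2 of 9 windows of higher genes, 3 of 11 of lower genes and 9 of 56 of genes not called. A match describes letters, not binding. The 8-letter motif was looked for because lysosome genes are known to share it, so its larger share in their windows was set in advance.

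**Figure D5:**
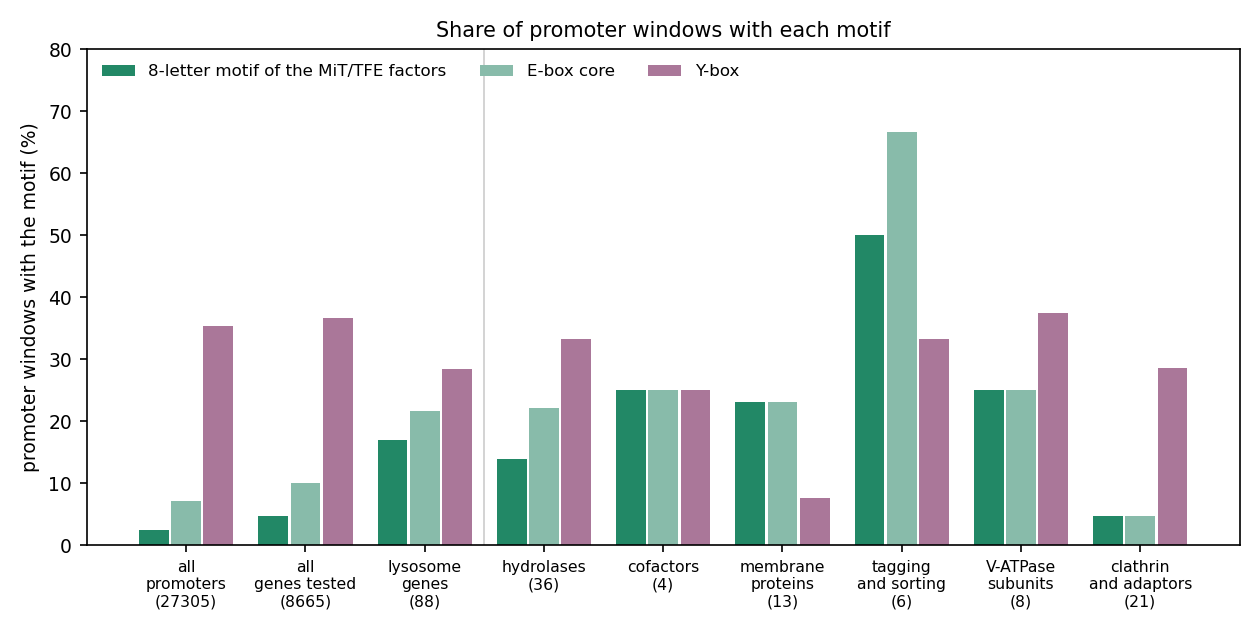
Percentage of promoter windows (vertical axis, number of windows in brackets) that hold the 8-letter motif of the MiT/TFE factors (GTCACGTG or TCACGTGA), the E-box core CACGTG or the Y-box CCAAT on either strand, for all RefSeq promoters, the genes tested, the lysosome genes and each role. The 8-letter motif, chosen because lysosome genes share it, is in 17% of lysosome windows and 2.55% of all promoters. The Y-box is in 28.4% and 35.4% of them.

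The windows of 4 abundant genes with the 8-letter motif are shown so that its place and number of copies can be seen, 5′ to 3′ along the gene, with the motif in capitals (CACGTGAC is GTCACGTG read on the other strand). The 4 are those of highest mean FPKM among the named genes that hold it, an order chosen later than the motif. They are CTSD at chr11:1763878-1764177 on the minus strand, LAMP1 at chr13:113296989-113297288, CTSA at chr20:45891085-45891384 and ATP6V0B at chr1:43974710-43975009, the last 3 on the plus strand.
CTSD: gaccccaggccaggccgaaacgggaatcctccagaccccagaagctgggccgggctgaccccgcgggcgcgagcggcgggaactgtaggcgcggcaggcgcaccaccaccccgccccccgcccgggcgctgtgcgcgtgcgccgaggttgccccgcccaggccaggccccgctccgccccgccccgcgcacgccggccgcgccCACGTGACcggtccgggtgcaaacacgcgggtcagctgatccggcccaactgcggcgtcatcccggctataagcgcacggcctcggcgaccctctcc
LAMP1: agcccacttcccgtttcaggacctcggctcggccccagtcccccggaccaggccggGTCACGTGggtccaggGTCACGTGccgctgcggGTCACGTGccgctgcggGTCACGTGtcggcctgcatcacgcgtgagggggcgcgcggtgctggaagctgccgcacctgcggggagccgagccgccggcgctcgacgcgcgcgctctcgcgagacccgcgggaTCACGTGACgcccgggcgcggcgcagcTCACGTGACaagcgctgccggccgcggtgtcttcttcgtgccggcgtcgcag
CTSA: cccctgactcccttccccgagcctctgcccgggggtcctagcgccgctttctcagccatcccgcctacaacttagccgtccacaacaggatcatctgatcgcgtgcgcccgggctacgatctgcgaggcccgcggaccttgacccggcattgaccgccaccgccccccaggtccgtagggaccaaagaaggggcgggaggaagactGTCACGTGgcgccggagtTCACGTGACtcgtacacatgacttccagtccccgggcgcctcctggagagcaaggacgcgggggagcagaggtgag
ATP6V0B: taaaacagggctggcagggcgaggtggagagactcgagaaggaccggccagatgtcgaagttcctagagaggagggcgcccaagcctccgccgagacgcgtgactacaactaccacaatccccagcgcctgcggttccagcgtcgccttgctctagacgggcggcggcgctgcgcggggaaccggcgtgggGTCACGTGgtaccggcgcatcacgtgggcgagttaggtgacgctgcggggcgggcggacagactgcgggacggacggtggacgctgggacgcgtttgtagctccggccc
LAMP1 holds 6 separate runs of the motif, CTSA 2, and CTSD and ATP6V0B 1 each, and none of the 4 windows holds CCAAT on either strand. Of the 4 genes, CTSA was called lower, and CTSD, LAMP1 and ATP6V0B were not called.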

How the data were processed

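The table deposited by the authors gives FPKM for 20030 genes in 3 shYB1 and 3 vector libraries, with KEGG pathways. The submitters' processing notes name Trimmomatic, HISAT2, Cufflinks, HTSeq, DESeq and the build GRCh38, without versions. Which tool gave the FPKM, and the annotation release, are not given in the sources used here. The study called genes by a mean change of at least 2 times and P under 0.05. All 6 columns of values were used and 0 were left out.

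Values were taken as log2(FPKM + 0.1), and 10439 genes passed the filter, a mean FPKM of 1 or more over the 6 libraries. They were tested with limma 3.58.1 in R 4.3.3 (empirical Bayes, trend and robust prior, two-sided), and p-values were adjusted by Benjamini-Hochberg over all of them. An exact permutation test of 3 against 3 libraries cannot give a p below 0.1. From the ratios between libraries of the lowest values (under 0.08 FPKM), the depth of the libraries relative to shYB1 replicate 1 was put at 0.978 to 1.10.

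By rule, genes were named from YBX1, the 6 hydrolases, 2 cofactors, 4 membrane proteins, 3 tagging or sorting genes, 4 V-ATPase subunits and 4 clathrin or adaptor genes of highest mean FPKM, called lysosome genes with an absolute log2 fold change of at least 0.4, and called genes of the outside lists; others were picked after their values were seen. The lysosome genes and all lists were chosen with earlier results of these data known. Shared 50-base words and exon overlaps were counted in GENCODE release 29 with Python 3.11.15, and figures were drawn with matplotlib 3.10.9. Alternatives were median-of-ratios scaling, a common total, quantile normalization, a pseudocount of 1 or of 0.01, no filter, a filter at 5 FPKM, a prior without trend, a replicate block, each library left out, and the ABC and SLC symbols kept.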

Additional observations from a re-analysis of the deposited data

How the results depend on the processing

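YBX1 kept its direction and its call in all 15 alternative fits. For the 34 genes besides YBX1 that the naming rule gives, across these fits, 417 values kept direction and side of the threshold, 53 lost the call, 14 gained a call and 20 changed sign, all 20 in genes not called. Members called higher and lower were 4 and 31 with median-of-ratios scaling and 8 and 26 with quantile normalization, against 13 and 16. All genes called higher and lower were 1192 and 1253 with the first scaling and 1267 and 1184 with the second, against 1956 and 723. Hydrolases called lower were 16 and 15 with these scalings, 11 with the filter at 5 FPKM, 4 with the prior without trend and 12 with the replicate block, against 7; 1 hydrolase was called higher with the filter at 5 FPKM, against 3, since fewer genes pass it. Members called lower were 10 with the prior without trend. All genes called lower were 624 of 6547 with the filter at 5 FPKM and 607 with this prior, against 723 of 10439. Clathrin and adaptor genes called higher, a count added after seeing the data, were 0 with median-of-ratios scaling and 2 with quantile normalization, against 6, and those called lower were 0 with the common total, with no filter and with the replicate block, against 1. The median log2 fold change of the members was −0.080 with median-of-ratios scaling, −0.068 with quantile normalization, −0.011 with no filter and −0.058 with the filter at 5 FPKM, against −0.025. With 1 library left out, it lay between −0.042 and −0.017, members called higher between 4 and 12, members called lower between 9 and 14, hydrolases called lower between 4 and 8, clathrin and adaptors called higher between 0 and 5 and lower between 0 and 0, and the median of clathrin and adaptors minus that of hydrolases, also added after seeing the data, between 0.091 and 0.20. All genes called higher lay between 1324 and 1948 in these fits, and those called lower between 517 and 609. Signs changed with median-of-ratios scaling in ATP6V0B (−0.010), CLTC (−0.0083), CTSD (−0.032), CTSZ (−0.050) and LAMP1 (−0.048), and with quantile normalization in CD63 (0.0080), IGF2R (−1.15e-04) and LAMP1 (−0.028). With 1 library left out, ATP6AP1 lay between −0.030 and 0.015, ATP6V0C between −0.098 and 0.023, CD63 between −0.047 and 0.049, CTSZ between −0.017 and 0.046, LAMP1 between −0.0080 and 0.023, and M6PR between −0.037 and 0.0057. Over all genes tested, deviations from the group means correlated at −0.169 to −0.00824 between libraries of the same replicate number. Between different numbers, the correlations were −0.0507 to 0.113. With 3 libraries in each group, these values cannot decide whether the libraries were paired. The summed FPKM of the members rose with the replicate number in both groups, at 4490, 4500 and 4709 with vector and 4410, 4430 and 4488 with shYB1. CTSD gained a call, as higher, with quantile normalization (0.11). With the replicate block 15 members were higher and 21 lower, beside 2074 and 760 of all genes tested. The call of ATP6V0E2 was lost with it (adjusted p 0.0550), and YBX1 had an adjusted p of 8.97e-08 by limma. Other than the smaller number of genes at the higher filter and of libraries with 1 left out, the cause was not tested. The depth is unknown, so no limit of detection is given.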
